A study of Mus musculus with 18 samples.

Results

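The 10 genes described here belong to the amino acid stress response and to serine synthesis, and were measured in mouse liver and liver tumours. They were the rows of the deposited expression table that carry the symbols Atf4, Atf5, Ddit3, Trib3, Chac1, Asns, Psat1, Phgdh, Shmt2 and Mthfd2. These 10 genes fill 11 of the 54838 rows, since Ddit3 is listed with 2 identifiers. RNA-seq covered 18 samples in 6 groups of 3. WT and GKO mice of the C57BL/6 strain, aged 36 weeks, gave liver tumours and non-tumour liver after diethylnitrosamine (DEN, a chemical carcinogen of the liver), and normal liver without any treatment. GKO mice carry a deletion of the miR-181ab1 cluster, which holds Mir181a-1 and Mir181b-1, throughout the body, and this holds for all 3 GKO groups. DEN was injected once into the abdomen at 25 mg/kg on postnatal day 12. The labels do not tie a tumour to the non-tumour liver of the same mouse or say whether the samples of a group came from separate mice, so the p-values below measure the spread between these samples.

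When amino acids run short or unfolded protein collects in the endoplasmic reticulum (ER), kinases phosphorylate the translation factor eIF2. General protein synthesis then slows, while the mRNA of the transcription factor ATF4 is translated more. ATF4 switches on genes for amino acid uptake and synthesis, among them those that make serine from a glycolytic intermediate and that pass its carbon to folate in mitochondria. The adult liver is known for breaking serine down and for low levels of the synthesis enzymes, and tumours of many tissues are known to express these enzymes. Because ATF4 is governed largely at translation, the mRNA of Atf4 itself is an incomplete measure of its activity.

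The 2 microRNAs encoded by the deleted cluster share the seed (bases 2 to 8), which is the stretch that pairs with target mRNAs. Their mature sequences, from RefSeq on GRCm38.p6, are shown because the deleted genes encode them, with the seed in capitals. The paper describes this cluster as the source of most mature miR-181 in human HCC. Whether GKO liver still held these mature sequences from elsewhere was not measured here.
mmu-miR-181a-5p (chr1:137966468-137966490, plus strand): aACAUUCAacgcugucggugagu
mmu-miR-181b-5p (chr1:137966650-137966673, plus strand): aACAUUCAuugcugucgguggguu
The complement of the seed, TGAATGT, was found in the 3′ UTRs of 0 of the 10 genes, whose UTRs run from 81 bases in Atf4 to 1368 bases in Psat1. It was found in 16.4% of the 21037 mouse genes with an annotated 3′ UTR of any length. Only this full match was sought, in the longest annotated 3′ UTR of each gene. Shorter matches to the seed were not sought, so the count does not say whether miR-181 targets any of the 10. The rows of the deleted genes could not check the genotype, since Mir181a-1 and Mir181b-1 were listed at 0 in all samples of both genotypes except for 1 read of Mir181a-1 (1.40 TPM) in GKO tumour 3.

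Levels are given in TPM, a measure that corrects read numbers for gene length and for sequencing depth, so that levels may be compared between genes. Reads recovered from TPM numbered from 11925057 to 20751355 per sample. All 10 hepatocyte markers were above 0 in every group, and their summed level ran from 132300 to 273300 TPM, higher in the 6 tumours (233000 or more) than in the other samples (203300 or less). WT tumours 1 and 2 were the most alike pair within a group (r = 0.9817, the next pair 0.9785). Samples that stood apart in the values that follow were WT non-tumour 2 and GKO tumour 1. WT non-tumour 2 had the highest summed level of 15 proliferation genes among the 12 samples without tumour (107.7 TPM, against 33.0 or less in the other non-tumours) and the lowest hepatocyte sum of all. GKO tumour 1 had the highest Ddit3, Trib3 and Psat1 of all samples, the lowest Asns, and Phgdh at the level of livers. Many, though not all, of the results that rest on either are given with and without it.

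Over both genotypes, 6 of the 10 genes were higher in tumours than in non-tumours and none was lower. These were the transcription factors Atf4, Atf5 and Ddit3, the pseudokinase Trib3, and the serine synthesis enzymes Psat1 and Phgdh. The test was limma's moderated test on log2(TPM + 1) with genotype as a covariate, over 14106 genes, with Benjamini-Hochberg adjustment. In this comparison 20.1% of all genes tested were called at an adjusted p under 0.05, and 12.2% were called as higher. The median difference in log2(TPM + 1) was 1.01 over the 10 genes and 0.08 over all genes tested, and every difference below is on that scale. At an unadjusted p under 0.05 there were 7 of the 10, where 35% of all genes reached it, and the 6 tumours lay clear of the 6 non-tumours in 3 of the 10 and in 7.86% of all genes. Chac1, Asns, Shmt2 and Mthfd2 did not pass. The 10 genes were chosen with earlier results of these data known, so the shares over all genes describe the set and do not test it.

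**Figure D1:**
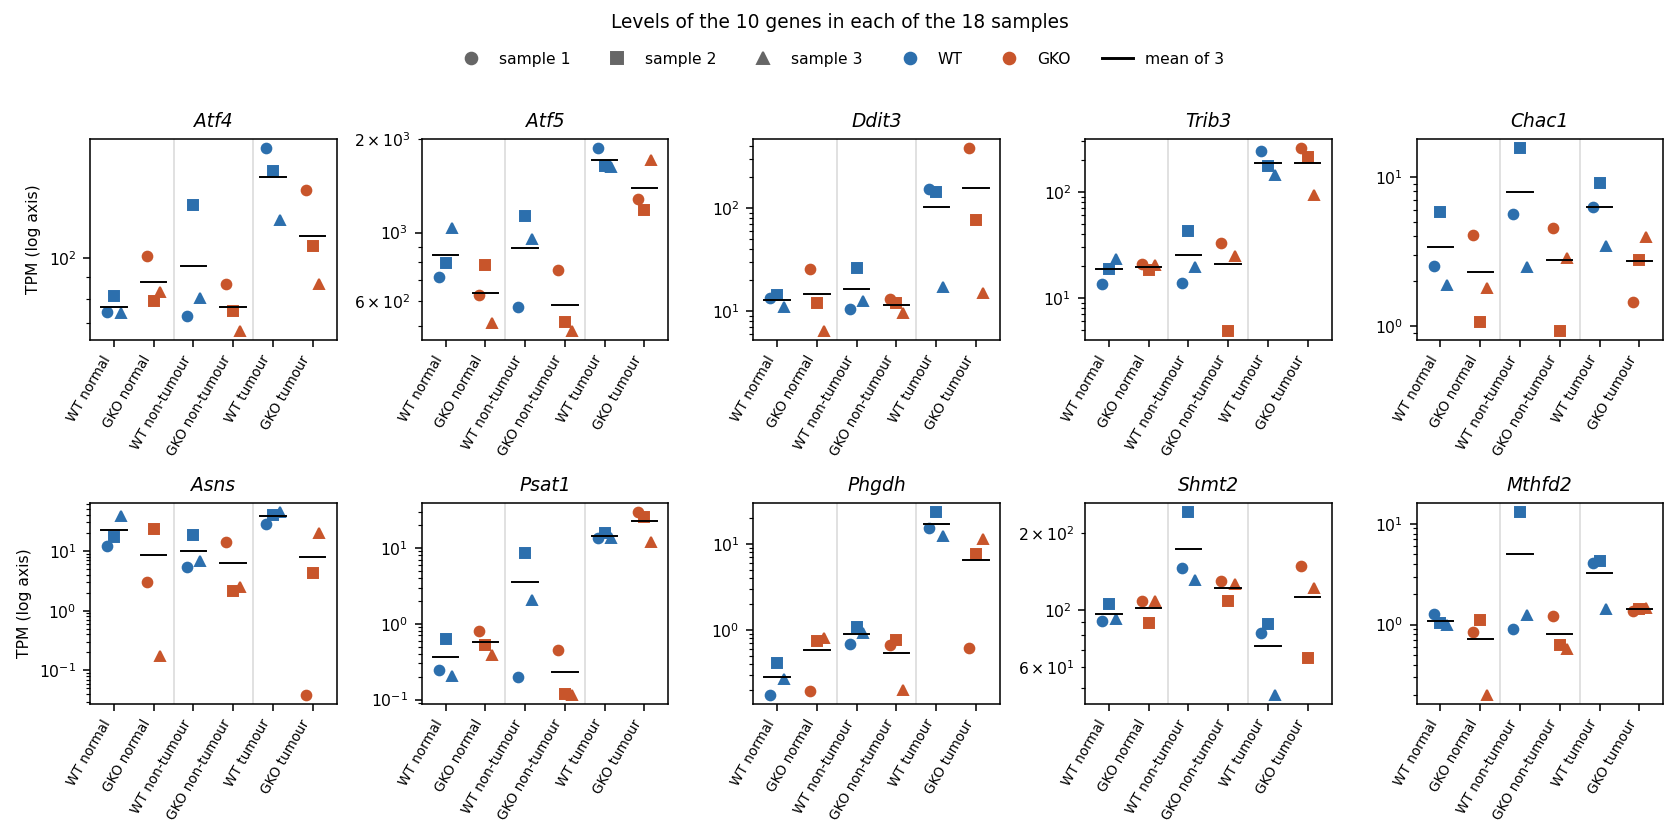
TPM (log axis) of each of the 10 genes in the 6 groups, with one point per sample (circle, square and triangle for samples 1, 2 and 3), WT in blue, GKO in orange and a line at the mean of 3 samples. Trib3, Psat1 and Atf5 lie higher in each of the 6 tumours than in any non-tumour, while Ddit3 is high in 4 tumours and at the level of the livers in 2.

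Atf4 (chromosome 15, 80255184 to 80257541, plus strand; positions are on mm10) encodes the transcription factor at the centre of the response. Samples are given in the order 1, 2, 3 throughout. WT tumours stood at 184.2, 162.1 and 123.7 TPM, and the GKO tumours at 146.3, 107.1 and 86.6 TPM. WT non-tumours stood at 72.5, 134.6 and 80.2 TPM, and the GKO non-tumours at 86.8, 74.6 and 67.0 TPM. The groups overlapped, through WT non-tumour 2 on one side and GKO tumour 3 on the other. The difference between tumours and non-tumours was 0.64 (SE 0.20, limma adjusted p = 0.0414). Atf4 passed in neither genotype alone. Its adjusted p ranged from 0.0142 to 0.101 over 22 alternative settings, with 10 of them under 0.05. Leaving out WT non-tumour 1 or 3, GKO non-tumour 2 or 3, WT tumour 1 or 2 or GKO tumour 1 or 2 each ended the call, with limma adjusted p from 0.0647 to 0.101. Normal livers had 73.7 to 101.5 TPM.

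Atf5 (chromosome 7, 44812256 to 44816658, minus strand) encodes a relative of ATF4 that is abundant in liver and linked to the stress response of mitochondria. It was the most abundant of the 10 genes in every sample. WT tumours had 1873, 1644 and 1631 TPM, and the GKO tumours 1282, 1183 and 1711 TPM. Non-tumours had 576, 1133 and 954 TPM in WT and 757, 514 and 482 TPM in GKO, so that the 6 tumours lay above the 6 non-tumours. The difference was 1.13 (SE 0.20, limma adjusted p = 0.00281). The groups of 3 also separated in each genotype, and the test passed in GKO (1.26, SE 0.28, limma adjusted p = 0.0324) but not in WT (1.00, SE 0.31, limma adjusted p = 0.141). The GKO call was lost without GKO non-tumour 2 or 3 or GKO tumour 1 or 3 (limma adjusted p from 0.0654 to 0.141).

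Ddit3 (chromosome 10, 127290774 to 127296288, plus strand) encodes CHOP, a transcription factor induced downstream of ATF4 that promotes cell death under lasting stress. WT tumours stood at 151.6, 141.9 and 17.1 TPM, and the GKO tumours at 382.3, 76.3 and 14.9 TPM. The 12 samples without tumour lay between 6.45 and 26.2 TPM. In 4 tumours Ddit3 was thus above every liver, while tumour 3 of each genotype lay within the range of the livers. The difference was 2.41 (SE 0.70, limma adjusted p = 0.0314), and it lost the call in 10 of 22 alternative settings. Those included leaving out WT non-tumour 1 or 3, any GKO non-tumour, WT tumour 1 or 2 or GKO tumour 2 (limma adjusted p from 0.0523 to 0.0694), while it was 2.89 without WT tumour 3 and 2.90 without GKO tumour 3. In neither genotype alone did Ddit3 pass, although the 3 GKO tumours lay above the 3 GKO non-tumours. The second Ddit3 identifier, a model of 105 exonic bases inside the same gene, had 0 reads in all 18 samples, and reads that touch both models may have been left uncounted.

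Trib3 (chromosome 2, 152337422 to 152344032, minus strand) encodes a pseudokinase that is induced by ATF4 and CHOP and damps their activity. WT tumours had 242.3, 176.1 and 142.9 TPM, and the GKO tumours 258.5, 215.5 and 93.6 TPM. Non-tumours had 13.9, 42.9 and 19.6 TPM in WT and 33.3, 4.92 and 24.6 TPM in GKO, and normal livers 13.6 to 23.4 TPM. Every tumour was thus above every sample without tumour. The difference was 3.14 (SE 0.44, limma adjusted p = 0.000621), and it passed in all 22 alternative settings. Trib3 also rose within WT (2.95, SE 0.43, limma adjusted p = 0.0160) and within GKO (3.33, SE 0.69, limma adjusted p = 0.0261). The WT call was lost without WT non-tumour 1 or 3 or WT tumour 1 or 2, with differences of 2.61 to 2.98 and limma adjusted p from 0.0583 to 0.0744. The GKO call was lost without GKO non-tumour 3 or any GKO tumour, with differences of 3.05 to 3.77 and limma adjusted p from 0.0509 to 0.0725.

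Chac1 and Asns are among the targets through which ATF4 acts on amino acids. Chac1 (chromosome 2, 119351229 to 119354381, plus strand) encodes an enzyme that degrades glutathione. WT tumours had 6.28, 9.15 and 3.46 TPM, and the GKO tumours 1.45, 2.76 and 3.94 TPM. WT non-tumours had 5.65, 15.6 and 2.48 TPM, and the GKO non-tumours 4.53, 0.936 and 2.88 TPM. Tumours and non-tumours overlapped in both genotypes, with the highest value in WT non-tumour 2, and no comparison of groups passed.

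Asns (chromosome 6, 7675169 to 7693254, minus strand) encodes asparagine synthetase, which makes asparagine from aspartate and glutamine. It was the most uneven of the 10 genes. WT tumours had 28.6, 40.5 and 44.4 TPM, and GKO tumours 0.0396, 4.34 and 19.6 TPM, the first of them from a single read. WT non-tumours had 5.38, 18.1 and 6.68 TPM, GKO non-tumours 14.0, 2.15 and 2.45 TPM, WT normal livers 12.2, 16.95 and 39.0 TPM, and GKO normal livers 3.00, 22.9 and 0.172 TPM. Both near-empty values, of 1 read and of 4 reads, came from GKO samples, and in each GKO group the ratio of the highest to the lowest sample was larger than in any WT group. Tumours and non-tumours did not differ by the test over both genotypes (0.90, SE 0.70, limma adjusted p = 0.385). Within WT the 3 tumours lay above the 3 non-tumours, with a difference of 1.96 (SE 0.44) that stopped short of the threshold (limma adjusted p = 0.0602) and passed in 4 of 16 alternative settings, among them without WT non-tumour 2 (2.45, limma adjusted p = 0.0104).

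Phgdh (chromosome 3, 98313170 to 98339990, minus strand) encodes the enzyme that commits a glycolytic intermediate to serine. It was close to silent without tumour, at 0.178 to 1.08 TPM (3 to 22 reads) in the 12 livers. WT tumours had 15.3, 23.2 and 12.4 TPM. GKO tumours had 0.610, 7.67 and 11.3 TPM, and the first of these, from 14 reads, lay within the range of the livers. The difference between tumours and non-tumours was 2.54 (SE 0.44, limma adjusted p = 0.00246) over both genotypes and 3.21 (SE 0.26, limma adjusted p = 0.00198) within WT. Phgdh passed in all 22 and all 16 alternative settings of these comparisons. Within GKO it did not pass (1.87, SE 0.70, limma adjusted p = 0.118), and it passed there without GKO tumour 1 (2.76, limma adjusted p = 0.00888).

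Psat1 (chromosome 19, 15904678 to 15947337, minus strand) encodes the aminotransferase of the next step. It too was nearly absent from most livers, at 0.117 to 0.805 TPM in 10 of the 12 (4 to 28 reads), while WT non-tumours 2 and 3 had 8.49 and 2.08 TPM. WT tumours had 13.7, 15.8 and 13.5 TPM, and the GKO tumours 29.6, 25.6 and 12.1 TPM, all above every liver. The difference was 3.20 (SE 0.48, limma adjusted p = 0.00102) over both genotypes and 4.17 (SE 0.34, limma adjusted p = 0.00406) within GKO. Within WT it was 2.22 (SE 0.68, limma adjusted p = 0.138), and 2.99 without WT non-tumour 2 (limma adjusted p = 0.0201). GKO tumour 1, which had the highest Psat1 of all samples, thus had Phgdh at the level of livers and Asns at 1 read.

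Shmt2 and Mthfd2 act next, in mitochondria, where they split serine to glycine and carry its carbon on folate. Shmt2 (chromosome 10, 127517123 to 127522444, minus strand) differed from the other enzymes in being abundant in normal liver, at 89.1 to 109.1 TPM. WT tumours had 81.7, 88.5 and 47.1 TPM, against 146.0, 240.7 and 131.4 TPM in WT non-tumours. GKO tumours had 149.2, 65.3 and 122.3 TPM and GKO non-tumours 129.7, 109.2 and 126.7 TPM. The WT groups did not overlap and the GKO groups did. The difference was -0.72 (SE 0.29, limma adjusted p = 0.0958) over both genotypes and -1.24 (SE 0.35, limma adjusted p = 0.117) within WT, and neither passed. Shmt2 passed as lower over both genotypes in 4 of 22 alternative settings, with median centring, with all 18 samples in one fit, with voom and without GKO tumour 1 (-0.88, limma adjusted p = 0.0475). Within WT it passed in 1 of 16, with all 18 samples in one fit (limma adjusted p = 0.0152).

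Mthfd2 (chromosome 6, 83305691 to 83325908, minus strand) is known as an enzyme of embryos and tumours. WT tumours had 4.13, 4.29 and 1.43 TPM, and the GKO tumours 1.37, 1.44 and 1.47 TPM. All livers lay between 0.202 and 1.27 TPM except WT non-tumour 2, at 13.1 TPM. Every tumour was therefore above 11 of the 12 livers, and the test did not pass over both genotypes (limma adjusted p = 0.711). Without WT non-tumour 2, Mthfd2 passed (0.68, limma adjusted p = 0.0420), and the count of the 10 genes was then 7.

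**Figure D2:**
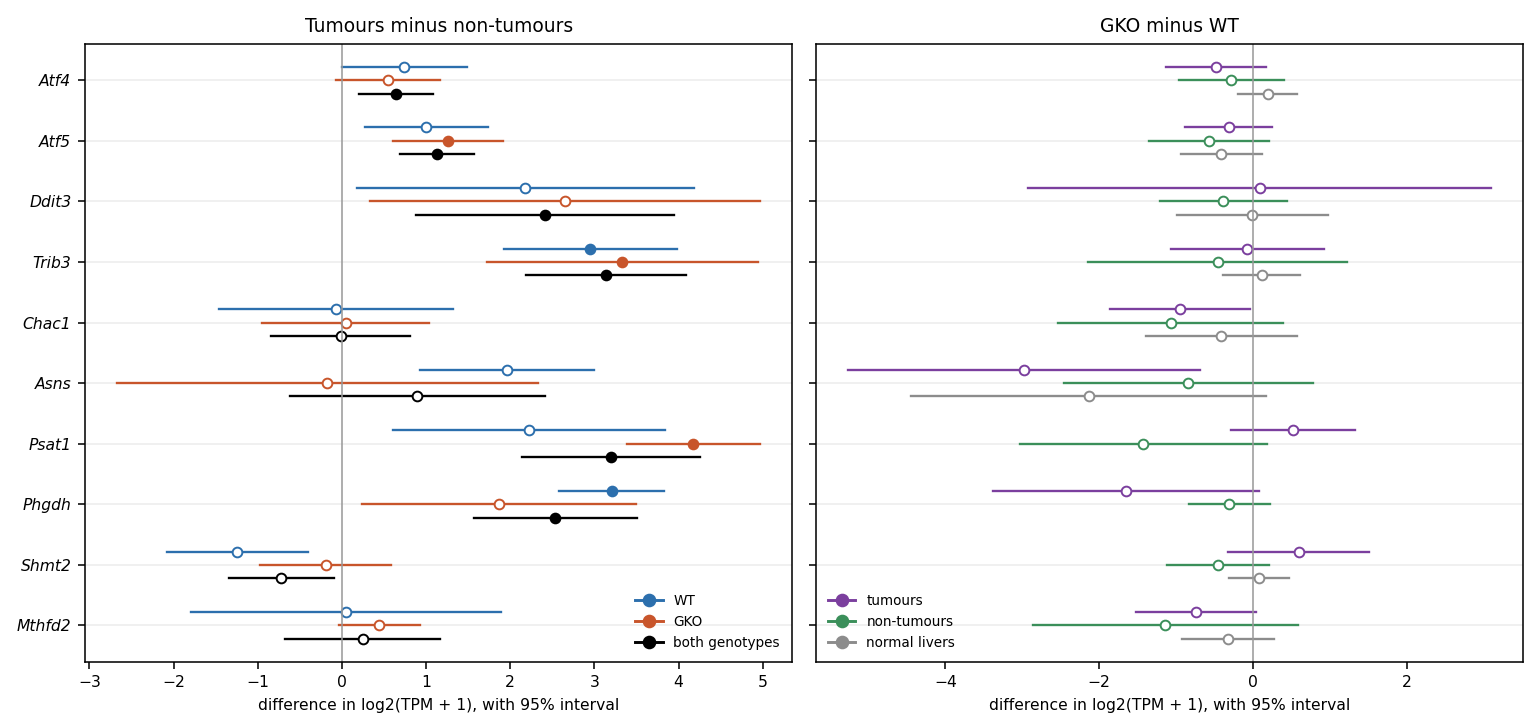
Differences in log2(TPM + 1) of the 10 genes between tumours and non-tumours (left, in WT, in GKO and over both genotypes) and between GKO and WT (right, in tumours, non-tumours and normal livers), with 95% intervals. Filled points have an adjusted p under 0.05, and none on the right is filled. Psat1 and Phgdh were under the filter in the comparison of normal livers.

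Taken by genotype, 2 of the 10 genes passed between WT tumours and WT non-tumours (Trib3 and Phgdh), where 4.23% of 14003 genes were called, 2.16% as higher and 2.07% as lower. There 7 of the 10 had an unadjusted p under 0.05 (19.9% of all genes) and 6 had groups that did not overlap (24.8% of all genes). In GKO, 3 of the 10 passed (Atf5, Trib3 and Psat1), where 11.7% of 14092 genes were called, 7.75% as higher and 3.97% as lower. There 5 of the 10 had an unadjusted p under 0.05 (31.7%) and 5 had groups that did not overlap (38.3%). These counts rested on single samples. Without WT non-tumour 2 the WT count was 4, adding Asns and Psat1, and without WT tumour 3 it was 3, adding Ddit3. It was 1 (Phgdh alone) without WT non-tumour 1 or 3 or WT tumour 1 or 2. The GKO count was 1 (Psat1 alone) without GKO non-tumour 3 and 2 or 3 without any other sample. The difference between the tumour effects of the genotypes was tested as an interaction, and 0 of the 10 genes passed, where limma called 0.0142% of all genes. At an unadjusted p under 0.05, which 10.5% of all genes reached, the interaction held 1 of the 10, Psat1 (1.95, SE 0.83, limma adjusted p = 0.475), and voom on the recovered reads also called 0 of the 10. The higher Psat1 effect in GKO was thus not shown to differ from that in WT.

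The comparison of GKO with WT tumours sets tumours that formed without miR-181ab1 against those that formed with it. The paper reports that GKO tumours were smaller and proliferated less. The part of tumour size and growth in the differences below was not tested. None of the 10 genes passed by limma, and 0.0215% of 13964 genes were called. At an unadjusted p under 0.05 there were 2 of the 10, Asns and Chac1, where 8.87% of all genes reached it. Asns was lower in each GKO tumour than in any WT tumour, with a difference of -2.98 (SE 0.97, 95% interval -5.27 to -0.69, limma adjusted p = 0.493). Without GKO tumour 1, the sample with 1 read, its difference was -1.87. Phgdh was also lower in each GKO tumour (-1.65, SE 0.73, 95% interval -3.38 to 0.08, limma adjusted p = 0.567), and its difference was -0.75 without GKO tumour 1. Groups that did not overlap were found in 2 of the 10 genes and in 14.7% of all genes. Chac1 had a difference of -0.95 (SE 0.38, limma adjusted p = 0.544), with overlapping groups. Voom on the recovered reads, and each of the other 15 settings tried, also called 0 of the 10. The interval for Trib3 ran from -1.07 to 0.92 and that for Ddit3 from -2.93 to 3.10, so that a difference of several fold in Ddit3 between the genotypes could not be told from none with these 6 tumours.

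In liver without tumour the genotypes did not differ by the test. Between GKO and WT non-tumours, limma called 0 of the 10 genes and 0% of 13768 genes, with 0 of the 10 and 5.8% of all at an unadjusted p under 0.05. All 10 differences were below 0, with a median of -0.52 against -0.15 over all genes, and WT non-tumour 2 had the highest value of its group in each of the 10. Without that sample Atf4, Ddit3 and Trib3 had differences of -0.01, -0.01 and -0.02, and Psat1 of -0.66. Groups that did not overlap were found for 1 of the 10, Shmt2 (-0.45, SE 0.28, limma adjusted p = 0.644), and for 13.2% of all genes. Between GKO and WT normal livers, 8 of the 10 genes could be tested, since Psat1 and Phgdh were under the filter. Limma called 0 of the 8 and 0% of 13099 genes, with 0 of the 8 and 3.96% of all at an unadjusted p under 0.05. The groups overlapped for all 8, and were separate for 7.95% of all genes. Voom called 0 in both comparisons.

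Exposure to DEN without tumour was examined against untreated liver. In WT, limma and voom called 0 of the 10 genes, and limma called 0.00744% of 13440 genes. At an unadjusted p under 0.05 there were 2 of the 10, where 24.4% of all genes reached it. These were Shmt2, with 131.4 TPM or more in non-tumours against 106.2 TPM or less in normal livers (0.78, SE 0.26, limma adjusted p = 0.161), and Phgdh (0.56, SE 0.20, limma adjusted p = 0.171). Phgdh here rested on 3 to 22 reads per sample. These 2 genes were also the ones whose groups did not overlap, as for 33.9% of all genes. In GKO, limma and voom called 0 of the 9 genes above the filter and limma 0% of 13530 genes, with 0 of the 9 and 5.2% of all at an unadjusted p under 0.05. Shmt2 again had groups that did not overlap, as for 8.73% of all genes, but the gap lay between 109.1 and 109.2 TPM and was smaller than the spread within either group.

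Ranked by mean level, tumours of the 2 genotypes held the first 2 places for Atf4, Atf5, Ddit3, Trib3, Psat1 and Phgdh. The 2 tumour groups overlapped each other in all of these but Phgdh, and they were clear of the third group for Atf5, Trib3 and Psat1. For Asns the WT tumours came first and the GKO tumours held place 5, and every neighbour in that order overlapped the next. For Shmt2 the WT non-tumours came first and the WT tumours last, each clear of its neighbour. For Chac1 and Mthfd2 the WT non-tumours came first, with their highest value in WT non-tumour 2.

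The RefSeq promoter windows (300 bases on GRCm38.p6, 250 before the start site and 50 after it) were searched on both strands for TGATGNAAN, the consensus of the element that binds ATF4 together with C/EBP proteins. It was present in 3 of the 10 genes, Chac1, Trib3 and Asns, and in 3.95% of all 32851 windows. The matches are shown on the strand of the gene because these 3 genes share the word while their values do not move alike. The match is in capitals and reads in reverse in Chac1 and Trib3. Counting was from the start site of the RefSeq window (first base of the transcript 1, the base before it -1). The first base of the match is then -194 in Chac1, -23 in Asns and 14 in Trib3. These start sites differ from the gene positions given above. Against the gene ends at 7693254 for Asns and 152344032 for Trib3, the match lies inside Asns and before Trib3. In Chac1 it lies before the start by either position.
Chac1 (chr2:119351038-119351067, plus strand): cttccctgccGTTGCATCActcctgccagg
Trib3 (chr2:152344028-152344057, minus strand): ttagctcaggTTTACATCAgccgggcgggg
Asns (chr6:7693213-7693242, minus strand): cccagccacaTGATGAAACttcccgcacgc
Of these 3 genes, Trib3 rose in tumours by the test and Chac1 and Asns did not pass. A match is a description of letters and not of binding, and its absence from the other windows says only that the word is not in them.

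To ask how the 10 genes vary together without the differences between groups, deviations of log2(TPM + 1) from the group means were correlated over the 18 samples. Of 45 pairs, 37 had a positive Pearson's r, and 4 pairs passed a permutation test within groups (100000 permutations, 2-sided, Benjamini-Hochberg over 45 pairs). Beside r, a rank version called rho is given. For it, values were ranked over the 18 samples, the group means of the ranks were removed, and Pearson's r was taken. Atf4 and Ddit3 had r = 0.82 (rho 0.83, permutation p = 0.00058 and 0.00093, adjusted p = 0.0156 and 0.0216). Without the 2 samples farthest from the median of Atf4, WT non-tumour 2 and GKO tumour 1, their r was 0.82. Atf4 and Psat1 had r = 0.81 (rho 0.86, permutation p = 0.00083 and 0.00144, adjusted p = 0.0156 and 0.0216), and r = 0.67 without the same 2 samples. Samples that were high in Atf4 for their group thus tended to be high in Ddit3 and Psat1.

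Atf5 and Asns had r = 0.73 (rho 0.72, permutation p = 0.00291 and 0.00432, adjusted p = 0.0327 and 0.0486), and r = 0.78 without WT non-tumours 1 and 2. Ddit3 and Psat1 had r = 0.52 (rho 0.82, permutation p = 0.00104 and 0.00119, adjusted p = 0.0156 and 0.0216), which was 0.40 without GKO tumours 1 and 3. Phgdh and Psat1, which act in adjacent steps, had r = -0.18 (rho 0.02, permutation p = 0.667 and 0.956, adjusted p = 0.750 and 0.959). Their r was -0.56 without WT non-tumours 1 and 2, and 0.29 over the 12 samples without tumour. Over all 18 samples Phgdh and Ddit3 had the lowest r, at -0.56 (rho -0.26, permutation p = 0.384 and 0.436, adjusted p = 0.529 and 0.633), and 0.26 without GKO tumours 1 and 3. Samples share their library, so a value that is high in one library enters several pairs.

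**Figure D3:**
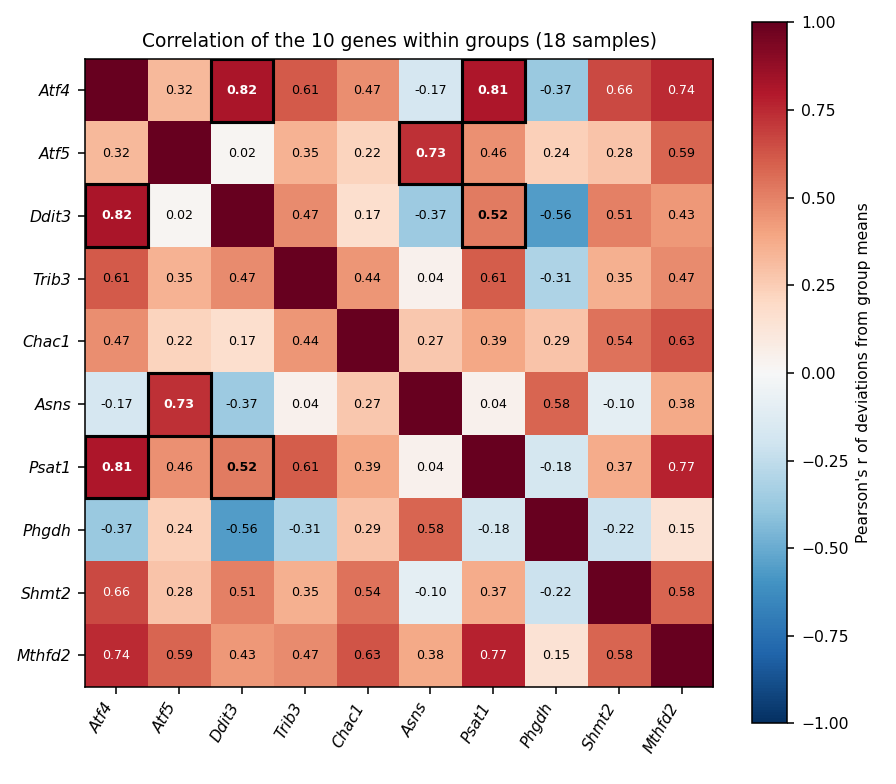
Pearson's r between the 10 genes, computed on deviations of log2(TPM + 1) from the group means over 18 samples. The 4 pairs in boxes and bold type have an adjusted permutation p under 0.05, with Atf4 and Ddit3 the highest at 0.82.

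For each of the 10, the genes with the most similar deviations were sought among 13914 genes (mean TPM of 0.5 or more over the 18 samples), and they are given as a description with no test. For Ddit3 they were Gcat, which cleaves the threonine breakdown product to glycine (r = 0.94), Mettl1 (0.93) and Tmem258 (0.92). For Trib3 they were Erp29, a chaperone of the ER (0.93), Eef1akmt4 (0.92) and Saysd1 (0.90). For Atf4 they were Marchf9 (0.92), Sprr1a (0.92) and 9530034E10Rik (0.91). Phgdh came with Dlx4 (0.91), Nr0b2, a nuclear receptor of bile acid control (0.90), and Gldc, a subunit of the glycine cleavage system (0.90). The best match of Mthfd2 was Ywhaz (0.97), and that of Chac1 was Srgap2 (0.95). WT non-tumour 2 had the highest level of both Mthfd2 and Chac1. For Psat1 the best match was Tmem167 (0.90), for Shmt2 Supv3l1 (0.93), for Atf5 Pigf (0.88) and for Asns Mageh1 (0.87).

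Other genes of the same pathways were then counted in tumours against non-tumours over both genotypes, where 12.2% of all genes were called as higher and 7.87% as lower. The lists share some genes. Ppp1r15a, Nars, Pycr1, Aldh1l2 and Cth are among the ATF4 targets and each in another pathway list as well. Tyms counts both as a nucleotide gene and as a proliferation gene. Upstream of Atf4, 2 of 14 eIF2 kinases, phosphatase subunits and eIF2 or eIF2B subunits rose and none fell. They were Eif2s1, the alpha subunit of eIF2 (0.97, SE 0.29, limma adjusted p = 0.0358), and Eif2ak3, the eIF2 kinase PERK of the ER (0.68, SE 0.21, limma adjusted p = 0.0386). The list had a median of 0.10, and it held no call without WT non-tumour 1 or 3, GKO non-tumour 2 or 3, WT tumour 3 or any GKO tumour. Among 24 other ATF4 targets tested, 5 rose, 1 fell and 18 did not pass, with a median of 0.58. The rises were led by Nupr1, a stress-induced chromatin protein (2.66, SE 0.56, limma adjusted p = 0.00683), Ddit4, an inhibitor of mTORC1 (1.80, SE 0.54, limma adjusted p = 0.0345), and Aldh18a1, an enzyme of proline synthesis (1.35, SE 0.25, limma adjusted p = 0.00358). Vldlr, a lipoprotein receptor, fell (-0.64, SE 0.20, limma adjusted p = 0.0408). The count of rises was 9 when WT non-tumour 2 was left out, and 3 when GKO non-tumour 3 or WT non-tumour 1 was left out. Of 12 tRNA synthetases, which charge tRNAs with amino acids, 2 rose and none fell. These were Wars (0.88, SE 0.21, limma adjusted p = 0.0146) and Sars (0.73, SE 0.19, limma adjusted p = 0.0210), and the median of the list was 0.35. The count was 4 without WT non-tumour 2 and 1 without GKO non-tumour 3 or GKO tumour 2.

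Chaperones and degradation factors of the ER are known as targets of ATF6 and XBP1, the other arms of the unfolded protein response. Of 18 such genes, 7 rose, none fell and all 18 differences were above 0, with a median of 0.89. Hspa5, the main ER chaperone, went from 166.9 to 654.6 TPM by group means (1.82, SE 0.51, limma adjusted p = 0.0272), Pdia6, a disulphide isomerase, from 110.8 to 400.5 TPM (1.67, SE 0.38, limma adjusted p = 0.0106) and Dnajb9, a cochaperone, from 27.0 to 52.5 TPM (1.00, SE 0.26, limma adjusted p = 0.0202). The count of 7 ranged from 3 to 12 over 22 alternative settings. It was 12 without WT tumour 3 and 12 without GKO tumour 3. It was 4 without WT non-tumour 1 or 3, GKO non-tumour 2, WT tumour 1 or 2 or GKO tumour 1 or 2, and 3 without GKO non-tumour 3. The shares of all genes called in these settings are not given here, so the counts are not set against them. Of 7 mitochondrial chaperones and proteases, which respond to ATF5, none rose and Clpp, a protease subunit, fell (-0.55, SE 0.18, limma adjusted p = 0.0497), while the median was 0.32. Leaving out any sample other than WT tumour 1 ended that call.

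In serine, folate and nucleotide metabolism, 6 of 15 other genes rose and none fell, with a median of 0.38. Mthfd1l, which works after Mthfd2 in mitochondrial folate metabolism, went from 1.07 to 5.52 TPM (1.67, SE 0.14, limma adjusted p = 2.7e-05), and its tumours did not overlap the non-tumours. Psph, the last enzyme of serine synthesis, went from 2.83 to 10.1 TPM (1.46, SE 0.25, limma adjusted p = 0.00202), also without overlap. Sfxn1, which carries serine into mitochondria, had a difference of 1.00 (SE 0.32, limma adjusted p = 0.0441). The count of rises was 3 without GKO non-tumour 3, GKO tumour 1 or GKO tumour 3. All 3 enzymes that lead from glycolysis to serine (Phgdh, Psat1 and Psph) were therefore called higher in tumours. Of 17 genes of serine, glycine and methionine breakdown, 3 fell and none rose, with a median of -0.10. They were Dmgdh, of choline breakdown (-1.31, SE 0.33, limma adjusted p = 0.0155), Srr, serine racemase (-1.10, SE 0.21, limma adjusted p = 0.00454), and Pipox, of pipecolate and sarcosine oxidation (-0.83, SE 0.20, limma adjusted p = 0.0143).

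**Figure D4:**
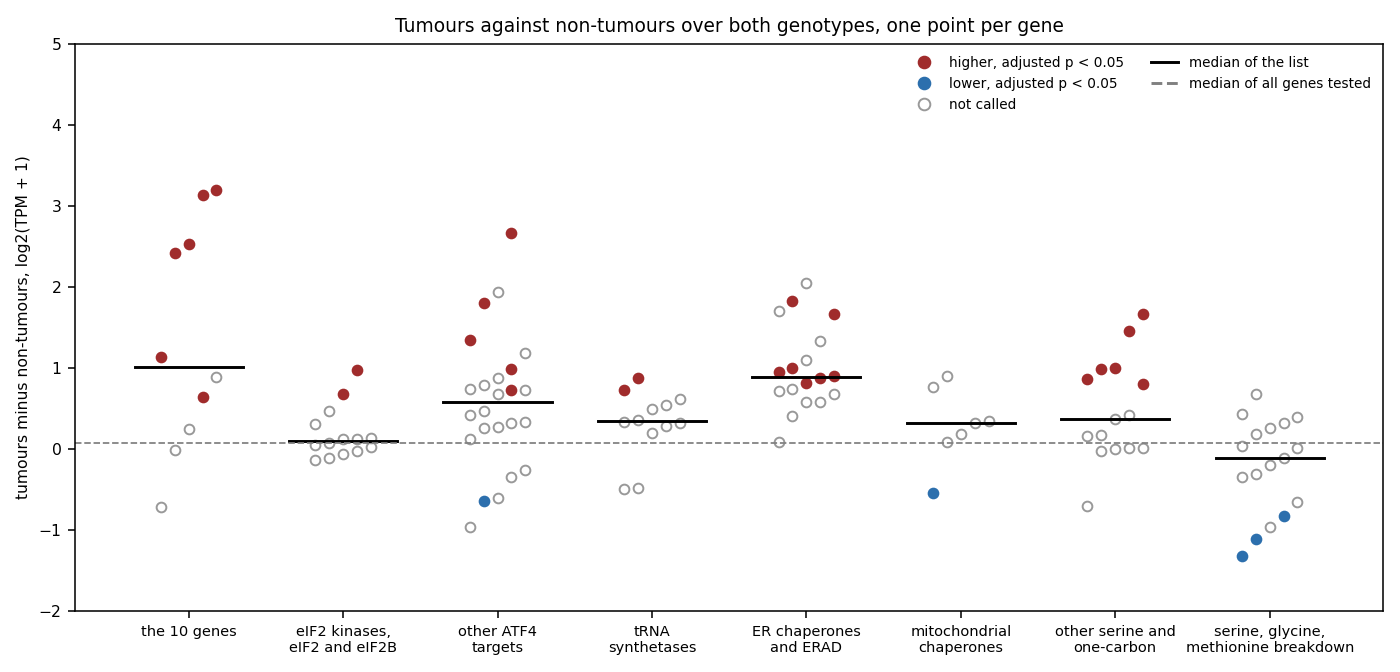
Difference in log2(TPM + 1) between 6 tumours and 6 non-tumours over both genotypes, one point per gene, for the 10 genes and 7 related lists. Red and blue points were called higher and lower, open points were not called, black lines are list medians and the dashed line is the median of all genes tested (0.08).

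The pathway genes were also tested within each genotype, and the difference between the genotypes was tested gene by gene as an interaction. In the interaction 0 genes of these lists passed by limma, where 0.0142% of all genes were called. At an unadjusted p under 0.05, which 10.5% of all genes reached, there were 4 of 17 breakdown genes. Every other pathway list held 0 or 1 such gene. In WT, where 2.16% of all genes were called as higher and 2.07% as lower, Mthfd1l rose (1.67, limma adjusted p = 0.0105), Derl3, of ER-associated degradation, rose (4.20, limma adjusted p = 0.0430), and Srr (-1.56, limma adjusted p = 0.0204) and Ahcy, of the methionine cycle (-1.35, limma adjusted p = 0.0481), fell. These calls turned on single samples. The ER list, with 1 of 18 called, had 13 of 18 called as higher without WT tumour 3, 6 with all 18 samples in one fit, and 0 when any other sample was left out, with voom or with the replicate block. Without WT tumour 3 some other lists gained calls as well, with proliferation genes from 1 to 4 and hepatocyte markers from 2 to 4. The tRNA synthetases and mitochondrial chaperones stayed at 0. The 2 breakdown genes lost their calls without WT non-tumour 1 or 3 or WT tumour 1 or 2, and Mthfd1l without WT non-tumour 1 or WT tumour 1 or 2. Of 24 other ATF4 targets limma called 0 in WT, against 3 without WT tumour 3 and 2 without WT non-tumour 2. In GKO, where 7.75% of all genes were called as higher and 3.97% as lower, 5 of 23 other ATF4 targets rose, led by Nupr1 (3.17, limma adjusted p = 0.0365) and Atf3, a stress transcription factor that had a mean of 1.195 TPM in non-tumours and 18.04 TPM in tumours (3.02, limma adjusted p = 0.00506). The same comparison held Mthfd1l (1.67, limma adjusted p = 0.00780), Atic (1.31, limma adjusted p = 0.0315) and Psph (1.25, limma adjusted p = 0.0320) as rises, and Sds, serine dehydratase, fell from 190.0 to 76.2 TPM (-1.29, limma adjusted p = 0.0221). Over 15 alternative settings the count of ATF4 targets ranged from 1 to 7, with 3 when GKO non-tumour 2 was left out and 1 when GKO non-tumour 3 was. That of serine, folate and nucleotide genes was 6 of 15 and ranged from 1 to 6, with 1 when GKO non-tumour 2 or 3 was left out, 2 without GKO tumour 1 and 3 without GKO tumour 2 or 3. Sds lost its call without GKO non-tumour 3 or GKO tumour 1 or 3. Between GKO and WT tumours, limma and voom called none of the genes of these 7 lists. At an unadjusted p under 0.05 by limma, which 8.87% of all genes reached, there were 4 of 17 breakdown genes and 3 of 23 other ATF4 targets. The other lists held 0 or 1 such gene each. The ER list lay mostly on one side there, with 1 of 18 differences above 0 and a median of -0.79, against 0.09 over all genes, and 1 of its genes was called as lower when all 18 samples entered the fit. When WT tumour 3 was left out, 3 ATF4 targets were called as lower in GKO tumours.

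Markers of other cells and of proliferation were also counted by limma in tumours against non-tumours over both genotypes. There 12.2% of all genes were called as higher and 7.87% as lower. Of 15 proliferation genes, 13 rose and none fell, led by Plk1 (2.30), Ccnb1 (1.87) and Birc5 (1.86), and their summed level was 48.0 to 220.3 TPM in tumours against 17.5 to 107.7 TPM in non-tumours. Of 7 macrophage markers tested, 4 fell and none rose, and the sum of 8 ran from 26.0 to 82.2 TPM in tumours and from 42.5 to 393.7 TPM in non-tumours. Over 22 alternative settings the rises of proliferation genes ranged from 3 to 14 and the falls of macrophage markers from 1 to 5. Of 10 hepatocyte markers, 4 rose and 1 fell. Of 9 fibroblast markers tested, 4 rose and 2 fell, and the sum of 10 was 53.4 to 190.1 TPM in tumours and 43.1 to 77.3 TPM in non-tumours. Of 8 endothelial markers, 3 rose and none fell. None of the T cell, B cell or cholangiocyte markers passed, and the cholangiocyte sum was 37.6, 548.7 and 959.2 TPM over the GKO tumours from lowest to highest, against 76.9 TPM or less in the other DEN-treated samples. None of these markers was at 0 in a whole group. Their part in the differences of the 10 genes was not tested, and in whole tissue a change in the share of a cell type and a change in the RNA of each cell cannot be told apart.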

How the data were processed

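Total RNA of 18 mouse liver samples, 3 in each of 6 groups taken from the labels, had been sequenced. Per the labels and the submitters' processing notes, the authors aligned reads to mm10 with STAR 2.7.3a, counted them per gene with featureCounts 2.0.0 (Subread) and deposited TPM values for 54838 genes. The annotation and the step from counts to TPM are not given in the sources used here. Lengths from GENCODE M21 turned TPM back into reads, and 97.95% to 98.67% of values of up to 30 reads per sample were whole within 0.02. This gave 11925057 to 20751355 reads per sample.

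TPM were tested as log2(TPM + 1) with limma 3.58.1 (R 4.3.3, lmFit and eBayes with a trend) over all genes whose average over the compared samples reached 0.5 TPM, with Benjamini-Hochberg adjustment, and called at an adjusted p under 0.05. A difference on this scale understates the change of low genes. The test was tried on simulated normal noise in which 200 genes, none of them low, were shifted by 2 in log2. It recovered 59% of them between GKO and WT tumours, with 9 false calls. Between WT tumours and WT non-tumours it recovered 61.5%, with 6 false calls, and over both genotypes 94.5%, with 13. Only the groups compared entered a fit, and the fit over both genotypes had genotype as a covariate. Because the same samples serve in several comparisons, these are not independent. Correlations used Python 3.11.15 with numpy 2.4.6 and scipy 1.17.1.

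All 10 genes were described in every group. From each pathway list, up to 3 rises and 3 falls by size among the genes called in a comparison could be named, and for each of the 10 up to 3 genes of the highest Pearson's r. The 10 genes and the lists were chosen with earlier results of these data known, and no list was given a test of its own. Alternatives were another pseudocount (0.1), quantile normalization or median centring, a filter at 5 TPM or none, a fit of all 18 samples, eBayes with no trend, the average of WT tumours 1 and 2 in place of both, voom on recovered reads, the replicate number as a block, and leaving out each sample. Same-numbered GKO and WT tumours deviated together weakly (r = 0.101, 0.12 and 0.197), although they come from different mice, and the block called 0 of the 10 genes there, as did the fit without it. In the other comparisons not every pair exceeded 0.1.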

Additional observations from a re-analysis of the deposited data

How the results depend on the processing

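The count of the 10 genes called between tumours and non-tumours over both genotypes was 6 and ranged from 4 to 7 over 22 alternatives, with Atf5, Trib3, Psat1 and Phgdh called in all 22, Ddit3 in 12 and Atf4 in 10. Between WT tumours and WT non-tumours the count was 2. It was 5 with all 18 samples in one fit and 1 with WT tumours 1 and 2 averaged, and it ranged from 1 to 4 when single samples were left out. Between GKO tumours and GKO non-tumours the count was 3. It was 1 with no filter, where many more genes enter the adjustment, and it ranged from 1 to 3 when single samples were left out. With the replicate block the counts were 6 over both genotypes, 2 in WT, 2 in GKO, where the call of Atf5 was lost, and 0 in each other comparison. The number of correlated pairs was 4, was 2 with a pseudocount of 0.1 and was 4 over the 12 samples without tumour. Of 151 such counts of called genes, 142 stayed within 1.5 times the main count. Most of the 151 came from comparisons where no gene was called and the count stayed at 0. The 9 that moved were all counts of tumours against non-tumours within WT or within GKO. Differences of the 10 genes were recomputed where the main unadjusted limma p was under 0.25, and most of these were not called in the main fit. Of 838 such recomputed differences, 783 kept their direction and side of the threshold, 38 lost the call and 16 gained it. The difference of Mthfd2 between WT non-tumours and WT normal livers, 0.90 with a limma adjusted p of 0.430, was -0.0199 (adjusted p = 0.961) without WT non-tumour 2 and at most 1.42, without WT non-tumour 1. The cause of these changes was not tested. Genes with few reads in livers (Phgdh, Psat1, Mthfd2 and Chac1) are limited by depth, and 3 samples a group leave wide intervals.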
